A study of Mus musculus with 10 samples.

Results

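The genes described here are 10 transcripts through which the circadian clock of the liver acts on other genes: Dbp, Tef, Hlf, Nfil3, Ciart, Usp2, Wee1, Bhlhe40, Bhlhe41 and Noct. They were picked by gene symbol from a table of 55487 genes, and each symbol matched 1 gene. All 10 were among the 15894 genes with enough counts to be tested. The livers came from mice of strain C57B/6J (as the labels write it) aged 22 months on normal chow, 5 libraries of mice lacking Arg2 in hepatocytes (LKO) and 5 of co-housed littermates with intact floxed Arg2 alleles (Flox). The study asked how loss of Arg2, the mitochondrial arginase, from hepatocytes alters gene expression in old liver. No source used here gives the Cre driver behind the deletion, the sex of the mice or the time of day at which livers were taken. Flox libraries carry the numbers of their titles, and LKO libraries the numbers of their table columns, which could not be linked to titles. Arg2 itself had 0, 0, 0, 4 and 6 counts in LKO libraries 1 to 5 and 0, 4, 0, 5 and 0 counts in Flox libraries 1 to 5, too few in both groups to check the deletion.

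As background, the clock proteins CLOCK and BMAL1 (gene Arntl) bind E-box sequences and switch on Dbp, Tef, Ciart and their own inhibitors, whereas the REV-ERB receptors (Nr1d1, Nr1d2) repress genes with ROR elements, among them Arntl and Nfil3. DBP, TEF and HLF are the PAR bZIP factors, activators that bind D-box sequences, and NFIL3 (also called E4BP4) represses through the same sequences. In mouse liver the activators peak around the end of the day and NFIL3 at the opposite time, so that D-box genes are driven in a daily rhythm, including genes of drug, haem and lipid metabolism.

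Across these 10 livers most clock output genes had wide ranges, and livers of the same genotype differed widely in them. The highest and lowest livers were of the same genotype for 4 genes (Hlf, Usp2, Bhlhe41 and Noct) and of different genotypes for the other 6. Flox 1, Flox 2, Flox 3 and LKO 1 were the 4 lowest libraries for 6 of the 10 genes (Dbp, Tef, Ciart, Usp2, Bhlhe40 and Bhlhe41) and the 4 highest for Nfil3. The same 4 libraries were the lowest for 1.31% of all tested genes and the highest for 1.47%. This set of libraries was noted after the values were seen, so these shares are a description. Flox 4, Flox 5 and LKO 5 were the 3 highest libraries for 5 genes (Dbp, Tef, Ciart, Usp2 and Wee1) and the 3 lowest for Nfil3. That set too was noted after the values were seen, and no share over all tested genes is given for it. Values below are CPM, counts scaled to library size with TMM factors that correct for library composition.

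**Figure D1:**
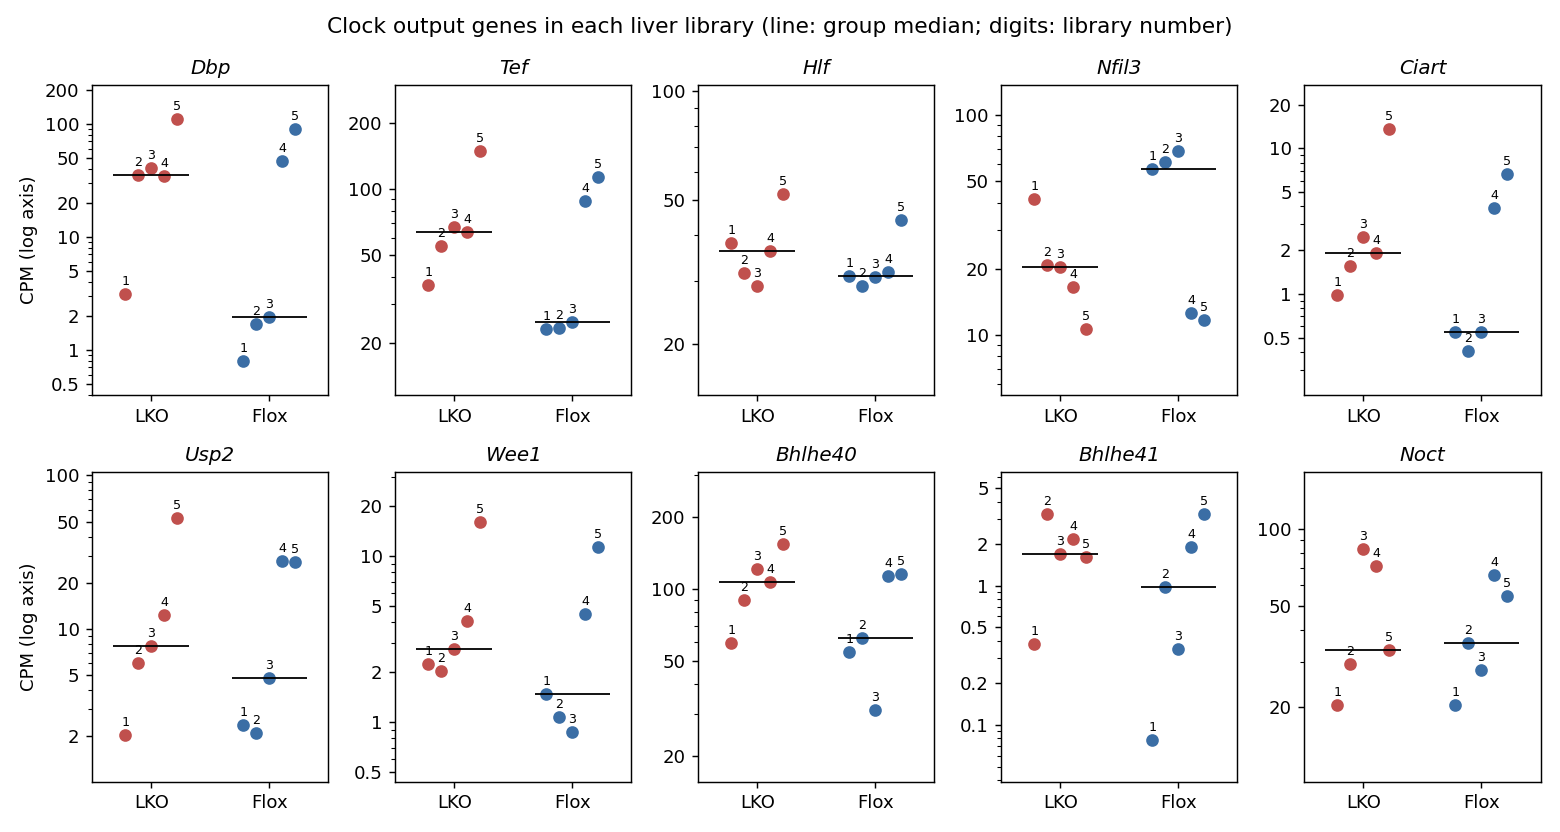
CPM of each clock output gene (log axes, 1 panel per gene) in the 5 LKO libraries (left, red) and the 5 Flox libraries (right, blue), with the library number above each point and a line at the group median. Flox 1 to 3 and LKO 1 sit low for Dbp (0.798 to 3.13 CPM) and high for Nfil3 (41.4 to 68.6 CPM), and the groups overlap in every panel.

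Dbp, the founding PAR bZIP activator (ENSMUSG00000059824, chromosome 7, 45705088 to 45710203, plus strand, GRCm38), had the widest range of the 10 genes. It stood at 3.13, 35.0, 41.1, 34.5 and 110.9 CPM in LKO libraries 1 to 5, and at 0.798, 1.68, 1.96, 47.3 and 91.0 CPM in Flox libraries 1 to 5. The highest library, LKO 5, had 5925 Dbp counts and the lowest, Flox 1, had 41, a 139-fold range. No library lay between 3.13 and 34.5 CPM. By Dbp the libraries therefore formed separate clusters, and no correlation between the 10 genes across libraries was tested. For some other genes the widest gap lay elsewhere, above 7 libraries for Usp2 and above 8 for Wee1. Reads of Dbp cannot be told apart from those of Sphk2 over 539 bases of opposite-strand exon overlap, since the strand setting of the counting is unknown.

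Tef, the second PAR bZIP activator (ENSMUSG00000022389, chromosome 15, 81802421 to 81826863, plus strand), had a smaller range in the same order of libraries at both ends. It stood at 36.5, 55.3, 67.5, 63.6 and 149.4 CPM in LKO libraries and at 23.2, 23.3, 24.8, 88.9 and 113.5 CPM in Flox libraries. The 6.44-fold range again put Flox 1 lowest and LKO 5 highest. Hlf, the third activator (ENSMUSG00000003949, chromosome 11, 90336536 to 90390895, minus strand), was nearly level. It stood at 38.01, 31.5, 29.0, 36.2 and 52.1 CPM in LKO libraries and at 30.9, 29.0, 30.6, 31.7 and 44.2 CPM in Flox libraries. LKO 5 and Flox 5 were the 2 highest for Hlf, as they were for Dbp and Tef, but LKO 3 was the lowest and the range was 1.80-fold.

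Nfil3, the D-box repressor (ENSMUSG00000056749, chromosome 13, 52967209 to 52981073, minus strand), ran the other way. It stood at 41.4, 20.9, 20.3, 16.5 and 10.7 CPM in LKO libraries and at 56.6, 61.3, 68.6, 12.6 and 11.7 CPM in Flox libraries. Its 6.44-fold range had LKO 5, the library with the most Dbp, at the bottom, and Flox 1 to 3, those with the least Dbp, at the top.

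Promoter windows, from 250 bases before to 50 after the RefSeq start (GRCm38.p6), were searched on both strands for 5 sequences: the E-box CACGTG, the D-box as TTANGTAA and as TTATGNAA, the ROR/REV-ERB element TAGGTCA and the cyclic AMP element TGACGTCA. RefSeq windows were matched for 8 of the 10 genes, and not for Wee1 and Bhlhe40. The windows of Ciart, Tef, Bhlhe41 and Nfil3 are shown because they hold a match to the E-box or the ROR/REV-ERB element. They were picked with the values known, low in the same 4 libraries or, for Nfil3, high. Dbp and Usp2, also low there, held no match. Whether any match is bound or used in these livers was not tested. Matches are in capitals.
Ciart (chr3:95882179-95882478, minus strand): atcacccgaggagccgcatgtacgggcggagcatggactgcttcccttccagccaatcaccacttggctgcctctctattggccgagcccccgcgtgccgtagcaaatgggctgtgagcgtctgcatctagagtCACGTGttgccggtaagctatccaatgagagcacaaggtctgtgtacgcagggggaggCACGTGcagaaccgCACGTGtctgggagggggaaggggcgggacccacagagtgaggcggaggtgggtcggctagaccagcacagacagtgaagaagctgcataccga
Tef, upstream start (chr15:81802423-81802722, plus strand): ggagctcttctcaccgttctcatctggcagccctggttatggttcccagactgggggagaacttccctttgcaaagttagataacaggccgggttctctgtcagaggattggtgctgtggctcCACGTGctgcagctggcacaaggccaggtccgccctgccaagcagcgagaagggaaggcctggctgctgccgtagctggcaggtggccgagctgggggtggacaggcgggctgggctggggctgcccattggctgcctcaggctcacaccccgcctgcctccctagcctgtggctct
Bhlhe41 (chr6:145865371-145865670, minus strand): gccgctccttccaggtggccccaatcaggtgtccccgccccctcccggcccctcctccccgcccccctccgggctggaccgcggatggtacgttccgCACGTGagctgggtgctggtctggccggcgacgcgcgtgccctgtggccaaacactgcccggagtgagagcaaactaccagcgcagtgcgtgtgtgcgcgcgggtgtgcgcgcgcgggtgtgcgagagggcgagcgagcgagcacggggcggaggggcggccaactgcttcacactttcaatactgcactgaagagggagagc
Nfil3 (chr13:52980990-52981289, minus strand): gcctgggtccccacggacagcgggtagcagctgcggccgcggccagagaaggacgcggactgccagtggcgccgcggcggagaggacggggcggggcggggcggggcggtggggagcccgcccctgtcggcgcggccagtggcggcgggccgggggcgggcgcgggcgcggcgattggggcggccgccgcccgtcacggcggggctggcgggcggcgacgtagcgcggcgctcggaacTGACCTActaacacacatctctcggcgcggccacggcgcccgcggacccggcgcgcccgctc

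The Ciart window held 3 E-boxes, whose first bases lay 116, 58 and 44 bases before the start. Of 32851 mouse windows, 7.15% held at least 1 E-box and 0.0883% held 3 or more. The upstream Tef window held 1 E-box 127 bases before the start, a second Tef start had 1 at 138 bases before it, and Bhlhe41 had 1 at 153 bases. The Nfil3 window held the ROR/REV-ERB element on the reverse strand (read there as TGACCTA), 12 bases before the start, as 2.61% of windows did on either strand. Hlf, the gene with the least range, held the cyclic AMP element 9 bases before the start (1.79% of windows), and Noct a D-box of the form TTATGNAA on the reverse strand, 94 bases before it (3.38% of windows). The TTANGTAA form, in 2.32% of windows, was in none of the members' windows. In the Dbp and Usp2 windows none of these letters were found, which says nothing of sites elsewhere in the genes.

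Set per kilobase (kb) of merged exons, so that genes of different length can be compared, the activators and the repressor changed places between livers. The summed level of Dbp, Tef and Hlf was 11.4, 23.4, 26.7, 25.02 and 63.9 CPM per kb in LKO libraries 1 to 5 and 7.84, 7.87, 8.39, 31.8 and 51.4 in Flox libraries 1 to 5. Nfil3 was at 20.4, 10.3, 9.99, 8.13 and 5.26 CPM per kb in LKO libraries and at 27.9, 30.3, 33.9, 6.21 and 5.75 in Flox libraries. By these lengths the repressor transcript exceeded the 3 activators together in LKO 1 and in Flox 1, 2 and 3. It was below them in the other 6 livers. Merged exons measured 2993, 7867 and 6681 bases for Dbp, Tef and Hlf and 2026 for Nfil3. A gene whose transcripts are shorter than its merged exons is set too low, and the transcripts present in these livers are not known. The ratio of activators to Nfil3 ran from 0.557 (LKO 1) to 12.2 (LKO 5) among LKO livers and from 0.248 (Flox 3) to 8.94 (Flox 5) among Flox livers. Both sides of the ratio moved, Nfil3 by 6.44-fold over the 10 livers. Dbp made up 9.18% to 58.0% of the summed activator level in LKO livers and 3.40% to 59.1% in Flox livers. In Flox 1, Hlf (4.62 CPM per kb) was the most abundant of the 3 activators and Dbp (0.267) the least, whereas in LKO 5 Dbp (37.1) exceeded Tef (19.0) and Hlf (7.80).

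**Figure D2:**
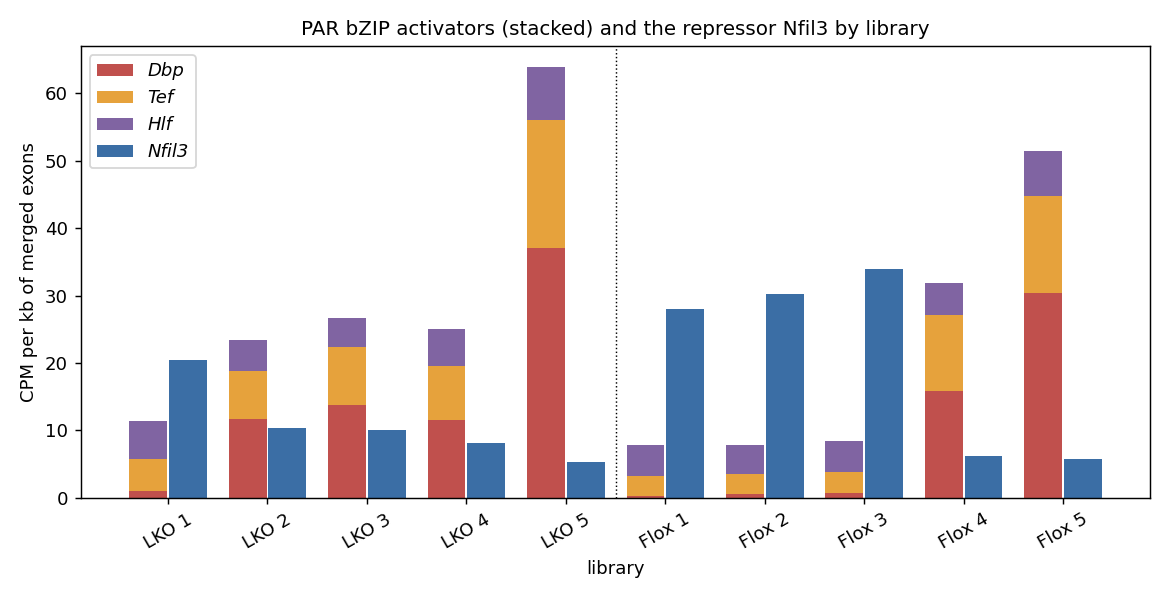
CPM per kb of merged exons in each library, with the activators Dbp, Tef and Hlf stacked in the left bar and the repressor Nfil3 in the right bar, LKO 1 to 5 before Flox 1 to 5. Nfil3 stands above the stack in LKO 1, Flox 1, Flox 2 and Flox 3 and below it in the other 6 libraries.

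Ciart, also called Chrono, is a repressor of CLOCK and BMAL1 (ENSMUSG00000038550, chromosome 3, 95878503 to 95882251, minus strand). It stood at 0.976, 1.56, 2.45, 1.90 and 13.7 CPM in LKO libraries and at 0.545, 0.405, 0.546, 3.91 and 6.63 CPM in Flox libraries. The range was 33.7-fold, from 20 counts in Flox 2 to 729 in LKO 5, and LKO 5 was far above the other LKO livers. Bhlhe40 (DEC1; ENSMUSG00000030103, chromosome 6, 108660629 to 108666925, plus strand) and Bhlhe41 (DEC2; ENSMUSG00000030256, chromosome 6, 145858243 to 145865558, minus strand) encode paired repressors that compete for E-boxes. Bhlhe40 stood at 59.4, 89.8, 121.5, 107.2 and 154.2 CPM in LKO libraries and at 54.7, 62.4, 31.3, 113.6 and 115.4 CPM in Flox libraries, a 4.93-fold range with Flox 3 alone at the bottom. Bhlhe41 was scarce, at 0.377, 3.27, 1.69, 2.16 and 1.61 CPM in LKO libraries and at 0.0779, 0.971, 0.349, 1.90 and 3.29 CPM in Flox libraries. Its 42.2-fold range rests on Flox 1, which had 4 counts. Unlike Bhlhe40, whose highest liver was LKO 5, Bhlhe41 was highest in Flox 5 and LKO 2, with LKO 5 in the middle of the order. Per kb, Bhlhe40 exceeded Bhlhe41 by 39.2 to 225-fold in LKO livers and by 50.1 to 1003-fold in Flox livers. Opposite-strand exons overlap Bhlhe41 over 1280 bases (Gm43909) and Bhlhe40 over 118 bases, and reads there cannot be assigned.

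Usp2, a ubiquitin protease with clock-driven transcripts (ENSMUSG00000032010, chromosome 9, 44067021 to 44095627, plus strand), stood at 2.02, 6.00, 7.68, 12.3 and 52.9 CPM in LKO libraries and at 2.36, 2.11, 4.78, 27.5 and 27.3 CPM in Flox libraries. LKO 1 was the lowest and LKO 5 the highest, 26.2-fold apart. Wee1, the kinase that holds CDK1 inactive before mitosis (ENSMUSG00000031016, chromosome 7, 110122046 to 110143286, plus strand), stood at 2.24, 2.03, 2.75, 4.04 and 16.1 CPM in LKO libraries and at 1.48, 1.07, 0.873, 4.502 and 11.4 CPM in Flox libraries. LKO 5 and Flox 5 were the 2 highest for Wee1, well above Flox 4 and LKO 4, and the range was 18.5-fold. Noct (nocturnin, which removes a phosphate from NADP(H); ENSMUSG00000023087, chromosome 3, 51224447 to 51251644, plus strand) had another order of libraries. It stood at 20.4, 29.6, 83.7, 71.3 and 33.4 CPM in LKO libraries and at 20.5, 35.8, 28.1, 65.9 and 54.3 CPM in Flox libraries. LKO 3 and LKO 4 were its highest livers and LKO 5, the highest for Dbp, Usp2 and Wee1, was in the middle of the order.

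The spread of each gene was set against all tested genes as the difference between its highest and lowest log2 CPM over the 10 libraries. The median of this range was 3.42 for the clock output genes and 0.94 for all 15894 genes, and 9 of the 10 were above the latter. Only 22 genes had a wider range than Dbp (7.05), among them the acute phase genes Saa2, Saa1 and Lcn2. Ciart (4.94), Bhlhe41 (4.81), Usp2 (4.69) and Wee1 (4.14) had wider ranges than 98.2% to 99.2% of tested genes. Tef (2.69) and Nfil3 (2.68) exceeded 92.0%, Bhlhe40 (2.30) 87.7% and Noct (2.03) 83.6%. Hlf (0.85) was below the median of all genes, wider than 44.6% of them. Within the groups, Dbp ranged 35.5-fold among LKO livers and 114-fold among Flox livers, and Usp2 26.2-fold among LKO livers and 13.1-fold among Flox livers. Average levels per kb over the 10 libraries ran from 19.3 CPM per kb for Bhlhe40, 15.8 for Nfil3 and 12.3 for Dbp down to 8.21 for Tef, 5.29 for Hlf, 4.16 for Noct, 3.01 for Usp2, 1.44 for Ciart, 1.36 for Wee1 and 0.234 for Bhlhe41. Each gene overlapped its neighbour in that order in its range over the libraries, down to Wee1 (0.256 to 4.71 CPM per kb) and Bhlhe41 (0.0116 to 0.489).

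**Figure D3:**
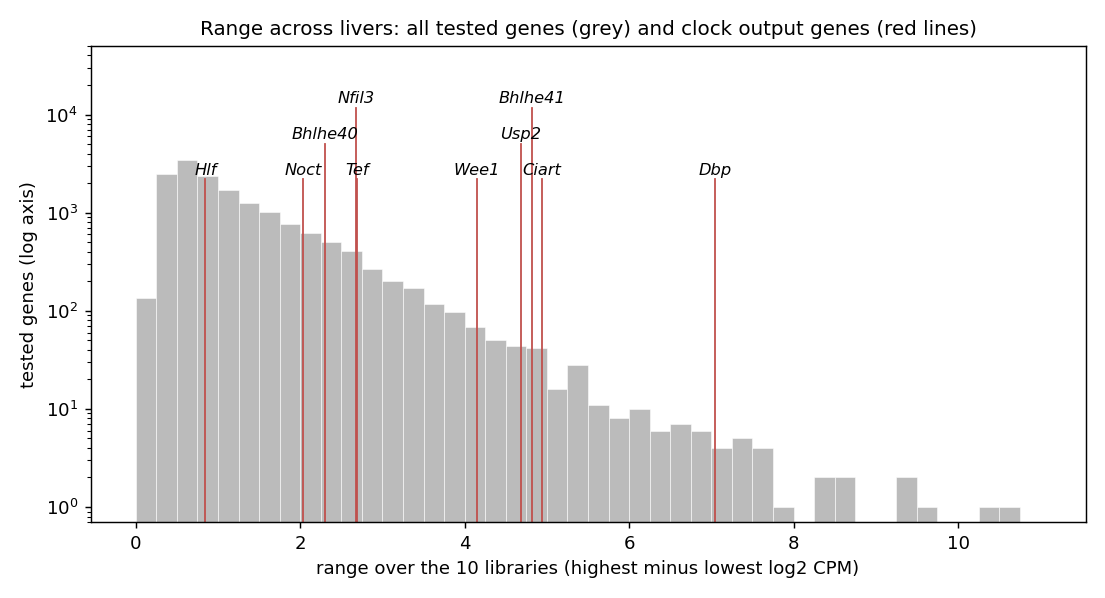
Number of tested genes (log axis) by the range of their log2 CPM over the 10 libraries, in grey, with the 10 clock output genes as red lines. Dbp, at 7.05, lies near the end of the distribution, and Hlf, at 0.85, near its middle.

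The core clock genes also differed between the same livers. Arntl (BMAL1) was at 21.6, 11.1, 9.84, 7.56 and 1.54 CPM in LKO libraries 1 to 5 and at 24.7, 22.0, 18.5, 3.96 and 3.02 CPM in Flox libraries 1 to 5. The 4 highest Arntl livers were the 4 with the least Dbp. LKO 1 was not a copy of Flox 1 to 3 in every respect. Its Nr1d1 (REV-ERB alpha) value was 90.0 CPM, within the 79.9 to 96.5 CPM of the other LKO livers, while Flox 1 to 3 were at 31.6, 41.2 and 26.9 CPM. Per2, a core repressor, was at 12.2 CPM in LKO 1 and at 6.64, 6.70 and 5.74 CPM in Flox 1 to 3, although Dbp was low in all 4. Among the outputs, LKO 1 also had more Dbp, Tef, Ciart, Wee1 and Hlf than each of Flox 1 to 3. It had less Nfil3 than each of them, and its Bhlhe40 and Bhlhe41 values lay among theirs. Its Usp2 (2.018 CPM) and Noct (20.43 CPM) values were barely below the lowest of theirs, 2.105 CPM in Flox 2 and 20.48 CPM in Flox 1.

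**Figure D4:**
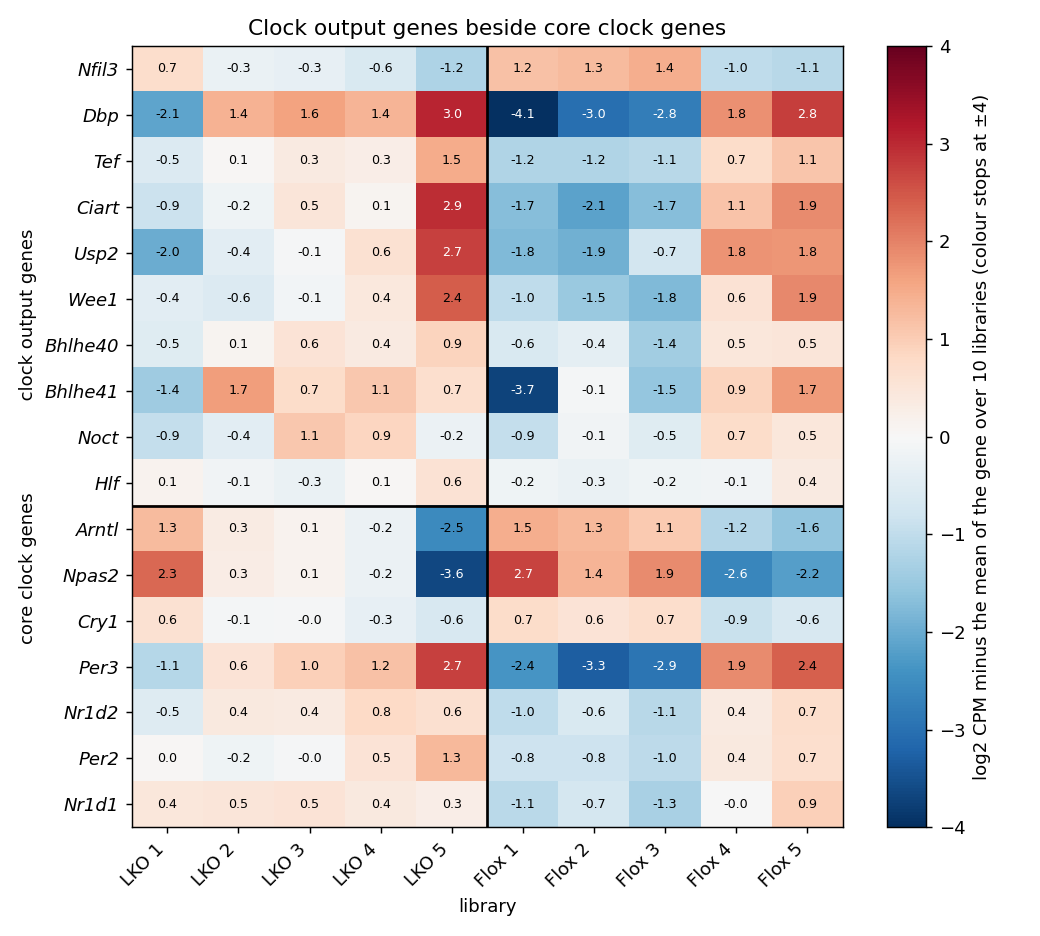
log2 CPM of each gene minus the mean of that gene over the 10 libraries, for the clock output genes (above the line) and core clock genes (below it), with LKO libraries left of Flox libraries. Arntl, Npas2, Cry1 and Nfil3 are high where Dbp, Per3 and Ciart are low, in LKO 1 and Flox 1 to 3, whereas Nr1d1 in LKO 1 is at the level of the other LKO livers.

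LKO was compared with Flox over all genes by edgeR's quasi-likelihood F test with Benjamini-Hochberg adjustment and a threshold of 0.05. None of the 10 clock output genes passed, nor did any of the 15894 tested genes (0%). None of the 10 had an unadjusted p under 0.05, where 7.51% of all tested genes did (1193 genes). DESeq2 also called 0 of the 10 (6 genes in all) and limma-voom 0 of the 10 (0 in all). The groups overlapped for all 10 genes, and did not overlap for 0.906% of tested genes. Nfil3 had the smallest unadjusted p of the 10. It averaged 21.9 ± 11.6 CPM in LKO livers and 42.2 ± 27.8 CPM in Flox livers (SD, n = 5 each), and its log2 fold change was -0.94 ± 0.57 (SE; adjusted p = 0.671). Dbp averaged 44.9 ± 39.8 CPM in LKO livers and 28.6 ± 40.2 CPM in Flox livers, with a log2 fold change of 0.65 ± 1.30 (adjusted p = 0.897), an error larger than the difference.

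Of the other activators, Tef averaged 74.5 ± 43.6 CPM in LKO and 54.7 ± 43.3 CPM in Flox (log2 fold change 0.44 ± 0.57) and Hlf 37.3 ± 9.01 CPM in LKO and 33.3 ± 6.18 CPM in Flox (0.17 ± 0.17). The log2 fold changes of the repressors Ciart, Bhlhe40 and Bhlhe41 were 0.77 ± 0.99, 0.50 ± 0.37 and 0.46 ± 0.79 (SE). Those of the effectors Wee1, Usp2 and Noct were 0.49 ± 0.86, 0.34 ± 1.02 and 0.22 ± 0.45. Adjusted p-values of the 10 genes ran from 0.671 to 0.935. In all, 9 of the 10 log2 fold changes were above 0, with a median of 0.45, where 48.4% of all tested genes were above 0 with a median of -0.0081. Because the 10 genes share livers, and most ranked them alike or in reverse, these signs are not independent. With any 1 liver other than LKO 5 left out, 8 (without LKO 3) or 9 of the 10 were above 0, with medians of 0.20 to 0.85. Without LKO 5, 5 of 10 were above 0 (median 0.0052), with Dbp at -0.010, Ciart at -0.49, Wee1 at -0.48 and Usp2 at -0.88. It was also 5 of 10 without Flox 2 and Flox 3 (median 0.000385). These edgeR values follow mean CPM, on which the highest livers weigh most. On the log2 scale Dbp averaged 4.81 in LKO and 2.72 in Flox over all livers, with median CPM of 35.02 and 1.965. By limma-voom, run on all livers, Dbp was at 1.57 ± 1.28 and Bhlhe41 at 0.97 ± 0.87 (SE). The other genes had smaller changes by limma-voom than by edgeR, and 8 of 10 were above 0 (median 0.31). Without LKO 5 the LKO mean of Ciart was 1.72 CPM, of Wee1 2.76 CPM and of Usp2 6.999 CPM, against 4.11, 5.43 and 16.2 CPM with it.

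The comparison was repeated with a core clock score as a covariate, the mean standardised log2 CPM of Nr1d1, Nr1d2 and Per3 minus that of Arntl, Npas2 and Clock. The score was 0.51 ± 1.37 in LKO livers and -0.51 ± 2.14 in Flox livers (SD, n = 5 each), and from one liver to another it ran from -2.19 (Flox 1) to 2.56 (LKO 5). With it the standard errors of all 10 genes shrank. The log2 fold change of Tef was then 0.11 ± 0.09, that of Nfil3 -0.12 ± 0.13, of Ciart 0.11 ± 0.25 and of Wee1 0.0088 ± 0.30. Dbp stayed at 0.78 ± 0.35 (unadjusted p = 0.0527, adjusted p = 0.796 by edgeR) and Usp2 was at -0.59 ± 0.38 (adjusted p = 0.796). No gene of the 10 passed in this fit either. The smaller errors were partly built in, because the score holds Per3 and Nr1d2, the genes most like Dbp. Their Pearson's r of log2 CPM with Dbp was 0.97 and 0.96, and that of Per3 with Nfil3 was -0.99. The mean score also differed between the groups. An effect of the genotype on the clock genes therefore cannot be told apart from clock phase in this fit.

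**Figure D5:**
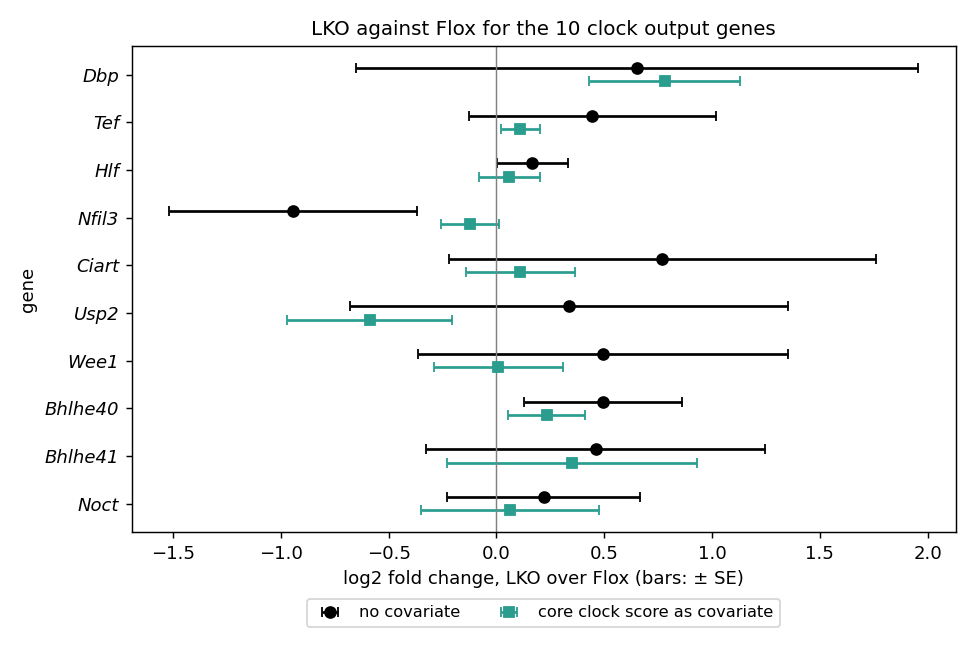
log2 fold change of LKO over Flox with its standard error for the 10 clock output genes, without a covariate (black circles) and with the core clock score as a covariate (green squares). The bars of all 10 genes are shorter with the score, only a little so for Hlf and Noct, and none of the 20 estimates passed the test.

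The genes that vary most like Dbp and Nfil3 were ranked by Pearson's r of log2 CPM over the 10 libraries, among 10899 other genes with a mean log2 CPM of at least 1. Since the livers form clusters by Dbp, r is used here only to rank and carries no test. Most like Dbp were Per3 (0.97), a period gene, Nr1d2 (0.96), the second REV-ERB receptor, Ppargc1b (0.95), a metabolic coactivator, Rtkn (0.92) and Sertad2 (0.92). Most opposed to Dbp were Gfer (-0.98), a sulfhydryl oxidase of mitochondrial protein import, Palld (-0.97), an actin-binding protein, and Cdkn1a (-0.95), the cell cycle inhibitor p21. Among the genes most like Nfil3 were Gfer (0.98), Pnrc1 (0.98), Cry1 (0.97), a core repressor, and Cdkn1a (0.96). Most opposed to Nfil3 were Per3 (-0.99), Ppargc1b (-0.97) and Foxo3 (-0.96). Gfer followed the order of livers closely in a narrow band, 47.4 to 68.0 CPM, whereas Per3 ran from 0.405 to 25.9 CPM and Cdkn1a from 4.39 to 36.4 CPM. With group means removed, these r values were 0.91 to 0.99 for the like genes and -0.94 to -0.99 for the opposed ones. Without the 2 livers farthest from the median of Dbp or Nfil3, Rtkn (0.85) and Sertad2 (0.84) dropped most. Neither step removes the split between livers with little and with much Dbp, which runs through both groups. The genes were also picked for their r in these same livers, so values far from 0 were largely built in.

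Of 12 genes known to depend on the PAR bZIP factors in mouse liver, 10 had higher and 2 lower values in LKO, and 0 passed in either direction (median log2 fold change 0.29). Aadac and Ces2a, hydrolases of drugs and lipids, had the smallest p. Aadac averaged 326 ± 39.0 CPM in LKO and 241 ± 41.4 CPM in Flox (log2 fold change 0.44 ± 0.13), and Ces2a 382 ± 70.2 CPM in LKO and 274 ± 84.1 CPM in Flox (0.48 ± 0.22; adjusted p = 0.652 each). Most of these genes did not share the order of livers seen for Dbp at its upper end. The genes given next were named after their values were seen, and no share over all tested genes is given for them. Por, the electron donor of cytochrome P450 enzymes, was highest in the same 3 livers as Dbp, at 600.0 CPM in LKO 5 and at 365.6 and 352.3 CPM in Flox 4 and Flox 5. In Flox 1, where Dbp was lowest, Por was at 318.6 CPM, above the 274 CPM of LKO 2. Cyp7a1, the rate-limiting enzyme of bile acid synthesis, was the only other of the 12 that was highest in those 3. It was at 82.96 CPM in LKO 5 and at 77.28 and 68.79 CPM in Flox 4 and Flox 5. It was lowest in Flox 3, Flox 2 and LKO 1. Flox 1, the liver with the least Dbp, was at 59.78 CPM of Cyp7a1, above LKO 2 (55.76 CPM) and LKO 3 (44.87 CPM). Alas1, the first enzyme of haem synthesis, was highest in LKO 5 (658.7 CPM) and Flox 4 (543.9 CPM) but at 145 CPM in Flox 5, the second highest liver for Dbp. Cyp4a14, a fatty acid hydroxylase with close copies, was highest in LKO 1 (670.3 CPM), where Dbp was at 3.13 CPM, and at 16.9 CPM in Flox 4, where Dbp was at 47.3 CPM. Cyp2b10, Cyp2c37 and Cyp4a10 were also highest in LKO 1, and Cyp2c50 in Flox 1.

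Of the 16 core clock genes 9 had higher and 7 lower values in LKO and 0 passed (median 0.12). Arntl averaged 10.3 ± 7.29 CPM in LKO and 14.4 ± 10.2 CPM in Flox (log2 fold change -0.48 ± 0.74), Nr1d1 89.6 ± 6.37 CPM in LKO and 58.7 ± 41.3 CPM in Flox (0.61 ± 0.38), and Per2 16.0 ± 7.62 CPM in LKO and 10.7 ± 6.00 CPM in Flox (0.59 ± 0.41). Of the 7 tested cell cycle partners of Wee1, 2 had higher and 5 lower values and 0 passed. Their levels were low in both groups, with Ccnb2 at 0.390 ± 0.215 CPM in LKO and 0.611 ± 0.191 in Flox and Cdc25a at 2.86 ± 0.459 CPM in LKO and 3.33 ± 0.862 CPM in Flox. Of 16 other transcripts known to cycle in liver, 10 had higher and 6 lower values and 0 passed, with Klf10, a feeding- and clock-responsive repressor, at 18.4 ± 6.56 CPM in LKO and 9.53 ± 5.15 CPM in Flox and Tsc22d3, a glucocorticoid target, at 53.2 ± 1.91 CPM in LKO and 68.4 ± 19.2 CPM in Flox.

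Genes that respond to feeding, fasting, stress and inflammation varied between the same livers, and their part in the values above was not tested. Of 8 acute phase genes all had lower values in LKO and 0 passed, with Saa2 at 102 ± 96.9 CPM in LKO and 5320 ± 7298 in Flox and Apcs at 69.3 ± 12.1 CPM in LKO and 223 ± 183 CPM in Flox. Saa1 and Saa2 together took 1.72% and 3.43% of counts in Flox 2 and 3, but 0.00371% in LKO 1 and 0.00970% in Flox 1, the other 2 livers with little Dbp. Of 7 genes induced by feeding all had higher values in LKO and 0 passed, with Pklr at 310 ± 137 CPM in LKO and 177 ± 134 CPM in Flox and Acly at 616 ± 125 CPM in LKO and 403 ± 290 CPM in Flox. Acly was at 707 CPM in LKO 1 and at 475, 167 and 85.1 CPM in Flox 1, 2 and 3, so the livers with little Dbp differed widely in it. Of 8 fasting genes 3 had higher and 5 lower values, with Igfbp1 at 15.2 ± 2.72 CPM in LKO and 57.2 ± 79.7 CPM in Flox (198.7 CPM in Flox 1 and 10.41 to 32.38 CPM in the other 4) and Pck1 at 1383 ± 286 CPM in LKO and 1910 ± 464 CPM in Flox. Of 7 glucocorticoid targets 1 had a higher and 6 a lower value, with Mt2 at 1.25 ± 0.996 CPM in LKO and 26.1 ± 36.3 CPM in Flox beside the Tsc22d3 values above. Of 6 immediate early genes 4 had higher and 2 lower values, with Egr1 at 18.8 ± 10.4 CPM in LKO and 9.30 ± 11.4 CPM in Flox and Atf3 at 1.01 ± 0.300 CPM in LKO and 1.28 ± 0.575 CPM in Flox. None of these genes passed.

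Total counts were 43331354 to 53891438 in LKO libraries and 44926666 to 54951415 in Flox libraries, and the 4 livers with little Dbp spanned 44926666 to 53187470. All 6 hepatocyte markers were detected, at summed levels of 126800 to 155200 CPM in LKO and 51740 to 121100 CPM in Flox. Summed T and NK cell markers (5 of 5 detected) were at 0.931 to 2.21 CPM in LKO and 2.005 to 5.85 CPM in Flox, and erythroid markers (3 of 3) at 350 to 653.5 CPM in LKO and 174.5 to 295 CPM in Flox. T and NK cell, Kupffer, B and plasma cell, neutrophil, sinusoidal endothelial, stellate, cholangiocyte, muscle and adipose markers overlapped between the groups. So did the 1 pancreas marker detected of 3 (Prss1 and Amy2a2 had 0 counts). In tissue RNA, fewer cells of a type and less RNA per cell cannot be told apart. No 2 libraries agreed within sampling noise, and the 2 least different of all 45 pairings were LKO 5 and Flox 5.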

How the data were processed

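Poly(A) RNA (oligo-dT, per the labels' protocols) of 10 liver libraries was sequenced. The deposited values are raw counts of reads per Ensembl gene, 1 column per library. Tools listed, per the submitters' processing notes, are featureCounts 1.4.6-p5, STAR 2.5.1a, Subread and bcl2fastq, with GRCm38 as the build. No source used here gives the strand setting, the treatment of reads with several positions or the annotation release, so overlapping genes and close copies are uncertain. After 287 repeated identifiers with identical counts were dropped from 55774 lines, 55487 genes remained, and edgeR's filterByExpr kept 15894.

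LKO was compared with Flox by edgeR 4.0.16 (TMM, robust quasi-likelihood fit, R 4.3.3), adjusted over all tested genes. Standard errors come from the F statistic. log2 CPM used a prior count of 2. DESeq2 1.42.0, limma-voom (limma 3.58.1) with quality weights, other scalings, no filter, left-out libraries and the clock score were tried as alternatives. Simulated counts with known changes were used to test the fit. No label says that each library is a separate mouse, so p-values measure the spread between these libraries. The labels pair no LKO library with a Flox library. Positions and merged exon lengths are from GENCODE M21 (GRCm38), and promoter windows from RefSeq (GRCm38.p6).

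The members, gene lists and rule for named genes were chosen with earlier results of these data known. The rule named all 10 members, the 5 genes most like and 3 most opposed to Dbp and to Nfil3, Arntl, Nr1d1 and Per2, and the 2 genes of each list with the smallest unadjusted p where none passed. A few genes that this rule names are not reported here.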

Additional observations from a re-analysis of the deposited data

Results flagged for a closer look

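In groups of 5 libraries, 1 liver stood far from the others (by Dixon's ratio) in 5 of the 20 combinations of gene and group examined. The ratio was taken on CPM, where a high value stands out more than on log2 CPM, and the flags were not checked on log2 CPM. Chance flags about 1 in 20 such groups only where values are normally distributed, which was not shown for these CPM. The 10 genes also share livers, so the 5 are not independent. In LKO, liver 5 was the high one for 4 genes. Its Tef value was 149.4 CPM, with the next LKO liver at 67.5 CPM. Its Ciart value was 13.7 CPM, with the next at 2.45 CPM. Its Usp2 value was 52.9 CPM, with the next at 12.3 CPM, and its Wee1 value was 16.1 CPM, with the next at 4.04 CPM. In Flox, liver 5 was the high one for Hlf, at 44.2 CPM with the next at 31.7 CPM. Dbp was not among these in either group.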

How the results depend on the processing

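None of the 10 genes passed under any of the 17 alternatives of the comparison, in which the smallest unadjusted p was 0.0527 (Dbp with the clock score) and the smallest adjusted p 0.430 (Nfil3). No paired analysis was possible because LKO and Flox titles share no replicate number and LKO columns could not be linked to titles. Log2 fold changes turned in direction for some genes when 1 library was left out, with ranges of -0.010 to 1.78 for Dbp, -0.49 to 1.58 for Ciart, -0.88 to 0.83 for Usp2, -0.48 to 1.44 for Wee1 and -0.082 to 0.46 for Noct. Dbp, Ciart, Usp2 and Wee1 turned without LKO 5, and Noct without LKO 3. Without Flox 2 and Flox 3 the values were -0.051 for Dbp, -0.018 for Tef, -0.24 for Usp2 and -0.088 for Wee1. Usp2 was at -0.16 by limma-voom and at -0.59 with the clock score. The cause of these turns was not tested. Hlf, Nfil3, Bhlhe40 and Bhlhe41 kept their sign under all 17. The median range of log2 CPM (3.42) lay between 2.89 and 3.44 over 14 alternatives. The range of Bhlhe41 was 3.09 without Flox 1, and that of Bhlhe40 was 1.496 without Flox 3. With 41 counts of Dbp and 4 of Bhlhe41 in Flox 1, the lowest values of Bhlhe41 are limited by depth, since a count of 0 allows 3 counts, 0.0546 to 0.0692 CPM per library.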
